A study of Homo sapiens with 6 samples.

Results

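LINC RNAs are long intergenic non-coding RNAs that carry a name of LINC and a number because no function was known when they were named. The 109 LINC RNAs described here were chosen by the base mean, the authors' mean of normalized counts per gene, as the rows named LINC and digits that reached a base mean of at least 5. They made up 109 of the 356 rows of this naming (30.6%), in a table of 20745 genes. The measurement was bulk RNA sequencing of 3′ ends in AB 8/13 cells, a conditionally immortalized human podocyte line that stops dividing and differentiates when the culture is moved to a higher temperature. There were 3 vehicle cultures and 3 cultures treated with 1 µM levamisole, an anthelminthic drug used to spare steroids in nephrotic syndrome, each for 24 h. Both groups came from the same line at different passages, differentiated before treatment, so the cultures stand for 1 immortalized line and not for podocytes of several donors. The culture medium of the vehicle group was described as serum-free in the sample labels and as complete medium in the methods. The base mean pools the libraries of the authors' fit, whose number was not stated. Among the 20745 base means, 0 were equal to another, even near the lowest of 0.194, so the mean may cover more libraries than these 6 cultures. The levels below are means over that whole fit and cannot be assigned to vehicle or levamisole. No value per culture was used here. The error of a level and any difference between vehicle and levamisole were therefore not estimated.

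Long non-coding RNAs are spliced and polyadenylated much like messenger RNAs but carry no long open reading frame. Some act on the gene next to them, others bind proteins or microRNAs, and many have no known role. Most are found at lower levels than messenger RNAs, and many start beside the promoter of a coding gene and run in the opposite direction. In podocytes, the epithelial cells that hold the filtration barrier of the glomerulus, few LINC RNAs have a described function.

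The label of the cells was checked against a list of 13 podocyte genes, of which 8 reached a base mean of 5. ACTN4, which cross-links actin filaments, stood at 14320, VEGFA at 1407, CD2AP at 929, KIRREL1 at 253, SYNPO at 22.8, PODXL at 15.3, TCF21 at 7.20 and WT1 at 6.21. PTPRO was at 0.333, while the slit diaphragm gene NPHS1 and the transcription factor LMX1B had no row in the table. Of 8 markers of tubule, endothelium, mesangium and leukocytes, 0 reached 5 and 4 had no row. PDGFRB, a mesangial marker, was the highest of them at 4.14. The defining marker NPHS1 was thus absent from the table, and the most abundant markers of the list were genes that many cell types use.

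The 3′ ends of 6 of the most abundant members are printed first, because the protocol read each RNA by tags near its polyadenylated end. The lines hold the last 60 bases of the annotated canonical transcript of each, read from GRCh38 with GENCODE 44, 5′ to 3′ on the strand of the gene. Capitals mark AATAAA, the hexamer that directs cleavage and polyadenylation.
LINC00958: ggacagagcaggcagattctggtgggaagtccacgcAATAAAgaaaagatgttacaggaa
LINC01578: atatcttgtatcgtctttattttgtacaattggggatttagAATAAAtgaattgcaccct
LINC00667: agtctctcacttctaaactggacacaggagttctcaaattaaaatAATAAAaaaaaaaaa
LINC00294: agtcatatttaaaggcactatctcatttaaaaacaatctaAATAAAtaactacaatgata
LINC00973: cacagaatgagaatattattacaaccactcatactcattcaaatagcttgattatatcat
LINC01278: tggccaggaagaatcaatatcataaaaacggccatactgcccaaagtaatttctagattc
The hexamer stood 15 to 24 bases from the annotated end in 4 of the 6, namely LINC00958, LINC01578, LINC00667 and LINC00294. LINC00973 and LINC01278 held neither AATAAA nor ATTAAA in these 60 bases. Repetition in the genome was counted for each end. In LINC01278 the most frequent word of 25 bases occurred at 47 places in the genome, compared with 2 for LINC00667 and 1 for the other 4. Reads that match several places are left out by the default counting used, and the share of tags lost in this way was not tested.

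LINC00958 was the most abundant member, at a base mean of 1251. This placed it at rank 585 among all 20745 genes and 2.37 times above the second member. It is a 3-exon RNA on the minus strand of chromosome 11, from 12961541 to 12989597 in GRCh38, and has been studied as an RNA raised in several carcinomas. In bulk RNA, a level cannot tell fewer expressing cells from less RNA per cell, and this holds for every value given here. LINC00997 was second at 528, a single-exon RNA on chromosome 7 from 32760279 to 32762924. LINC01578, now named CHASERR, followed at 398. It is transcribed from chromosome 15 (92819540 to 92899701), and this span overlaps on the same strand the chromatin remodeler gene CHD2, whose output it is known to restrain in cis. CHD2 itself stood at 336. These 3 RNAs held 35.7% of the summed base mean of all members, and LINC00958 alone held 20.5%.

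The next 6 members lay between 160 and 254. LINC00511, on chromosome 17 from 72290091 to 72640472, was at 254, LINC00667 on chromosome 18 at 251 and LINC00973 on chromosome 3 at 250. These 3 levels lay within 5 units of each other, and their order cannot be read without an error. LINC00963 on chromosome 9 was at 205. LINC01278 on chromosome X was at 191 and overlapped SPIN4, a gene of the spindlin family at 85.9, on the same strand. LINC00294 on chromosome 11, another single-exon RNA, was at 160. Its span overlapped TCP11L1 on the same strand and CSTF3, at 458, on the other.

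The other members of the 20 highest ranged from 63.6 to 126. LINC01139 was at 126, LINC01111 at 107 and LINC01184 at 101, and 12 members in all reached 100. LINC02604 was at 87.0, LINC01116 at 85.9, LINC00205 at 77.7 and LINC01006 at 75.9. LINC00662 was at 74.5, LINC02274 at 71.0, LINC00674 at 67.6 and LINC02381 at 63.6. The 20 highest held 72.5% of the members' sum.

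**Figure D1:**
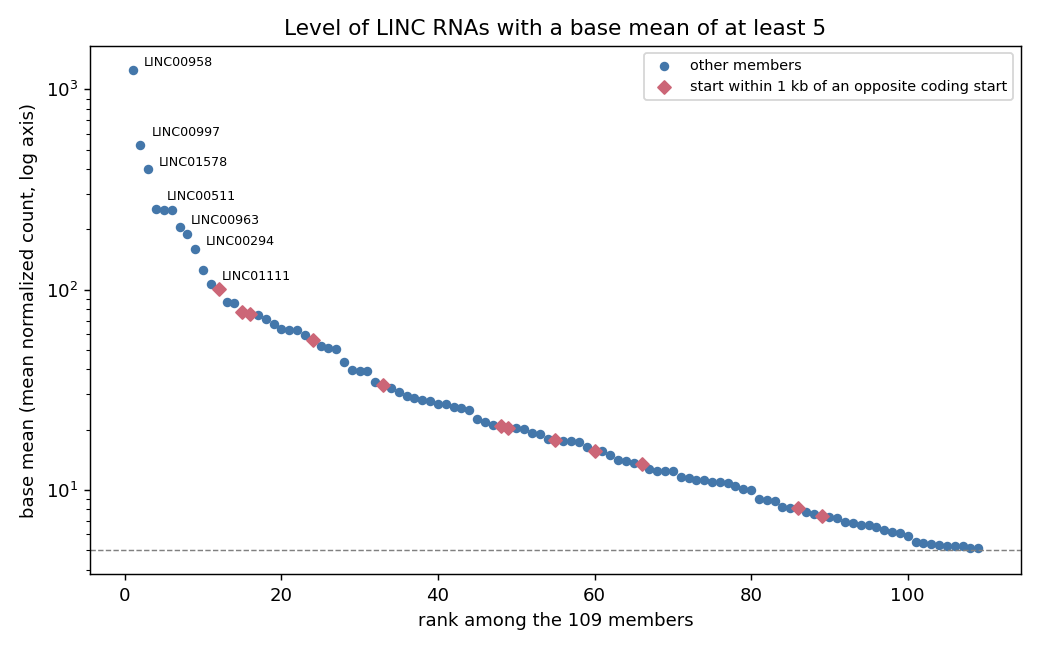
Base mean of each of the 109 members (vertical log axis, mean normalized count) against its rank (horizontal axis). Diamonds are the 12 members that start within 1 kb of a coding gene's start on the other strand, and the dashed line is the minimum of 5. LINC00958 at 1251 stands above all others, and the levels fall to 5.13 at rank 109.

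The members spanned a wide range with most near its lower end. Of the 109, 12 reached 100, 15 lay from 50 up to 100, 24 from 20 up to 50, 28 from 10 up to 20 and 30 from 5 up to 10. Their median was 17.7 with quartiles of 8.92 and 43.6. The rows nearest to the minimum were LINC02352 at 5.22, LINC01776 at 5.16 and LINC01426 at 5.13 above it, and LINC01004 at 4.97, LINC00910 at 4.93 and LINC00607 at 4.82 below it. The minimum therefore cut through a continuous run of levels. The 247 rows under it had a median of 0.836, and members held 94.8% of the summed base mean of all LINC rows. The members' sum of 6101 was 0.0961% of the summed base mean of the whole table.

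Against the other genes of the table, 46 members were above the median of all rows (21.8) and 19 above the median of protein-coding rows (66.2). Well-studied long non-coding RNAs gave the scale. MALAT1 and NEAT1, which sit in nuclear speckles and paraspeckles, were at 4188 and 1742. OIP5-AS1 was at 771, TUG1 at 467, NORAD at 287 and MEG3 at 123. LINC00958 thus lay between NEAT1 and OIP5-AS1, and LINC00997 and LINC01578 were near TUG1. CYTOR at 31.7, H19 at 29.2 and HOTAIR at 25.8 were below the 27 members that reached 50, and MIAT was at 1.23. By class, 30.6% of LINC rows reached 5, compared with 27.3% of other long non-coding RNA rows (949 of 3470), 16.6% of pseudogene rows (302 of 1816) and 81.9% of protein-coding rows (11837 of 14453). Among the rows that reached 5, the median was 17.7 for LINC RNAs, 12.8 for other long non-coding RNAs, 12.02 for pseudogenes and 101 for coding genes. These shares and medians describe the values that chose the members and carry no test.

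**Figure D2:**
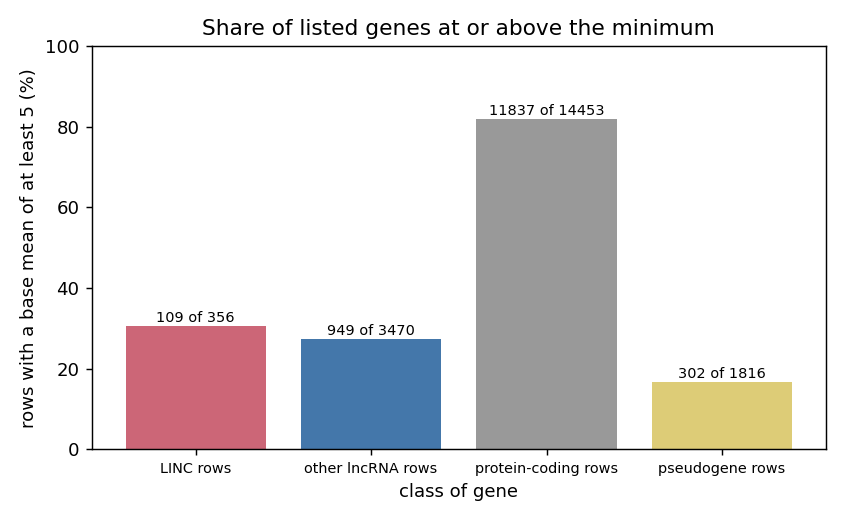
Share of the listed genes of each class with a base mean of at least 5 (vertical axis, percent; counts above the bars). LINC rows at 30.6% lie near other long non-coding RNA rows at 27.3% and far under protein-coding rows at 81.9%.

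A list of LINC RNAs known from cancer and other studies was looked up among the members. It was written with earlier results of these data known, so its overlap with the members carries no test. Of the 43 names, 28 were members, 6 were listed under the minimum and 9 had no row under that name. Other names of these 9 were not searched, so they may be listed under a newer name, also among the RNAs used for scale above. Over all LINC rows, 109 of 356 (30.6%) were members. Beside those of the 20 highest, LINC00665 was at 63.2, LINC00475 at 52.5, LINC00641 at 39.1, LINC00460 at 27.9 and LINC00847 at 25.7. LINC00339 was at 22.7, LINC00467 at 21.8, LINC00342 at 18.99 and LINC00839 at 17.9. LINC00472 was at 14.2, LINC00852 at 13.6, LINC01003 at 12.7, LINC01128 at 11.6 and LINC00707 at 11.3. LINC01138 at 8.13 and LINC01503 at 7.28 were the lowest of the 28 members of the list. The 6 rows under the minimum ranged from 0.356 to 3.39.

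Members came from 23 chromosomes, with the most on chromosome 1 (12 members), chromosome 3 (10) and chromosome 6 (8). These chromosomes held 39, 30 and 22 of the LINC rows with a position, so the counts also reflect how many such rows each has. In the canonical transcripts the median was 3 exons both for members and for the 243 lower LINC rows that had a position. Transcript length had a median of 1709 bases in members and 1502 in the lower rows. A single exon was found for 14 members (12.8%) and for 19 lower rows (7.82%). Across the 109 members, Spearman's rho of the level was −0.02 with transcript length and 0.05 with exon number. These are correlations across genes, which are not independent replicates. GENCODE 44 classed 102 of the 109 as long non-coding RNA and 6 as transcribed pseudogenes, among them LINC00674 and LINC00475. It classed 1 as protein-coding, LINC00634 (base mean 5.40), which is named after its values were seen.

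Most members lay outside coding genes, with 86 of 109 (78.9%) overlapping no other gene of that kind on either strand. Among the lower rows this held for 206 of 243 (84.8%). The LINC name is meant for intergenic RNAs, so both shares follow in part from the name pattern. An overlap with a coding gene on the opposite strand was found for 17 members and on the same strand for 9. Of 93 members whose nearest coding gene was listed, 36 had a higher base mean than that gene. Only the members had to reach the minimum level, so this count carries no test. Members whose nearest coding gene had no row were left out of it. Members overlapped each other in 2 cases. LINC00667 at 251 overlapped LINC00526 at 6.64 on chromosome 18, and LINC01116 at 85.9 overlapped LINC01117 at 12.4 on chromosome 2, each pair on opposite strands. Near the HOX clusters, whose genes set position along the body axis, LINC02381 lay 69989 bases from HOXC4 (10.1). LINC02086 at 34.5 lay 13351 bases from HOXB7 (281), and these overlaps and neighbourhoods were chosen after the values were seen.

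A divergent start, within 1 kb of the start of a coding gene on the other strand, was found for 12 members (11.01%) and for 25 of the 243 lower rows (10.3%). In 5 of the 12 pairs the LINC RNA was the higher partner and in 7 the coding gene was. Only the LINC RNA had to reach the minimum of 5, so these counts carry no test. Only the distance and strand of the starts were used, so the partners need not point away from each other. The spans of LINC01006, LINC00909, LINC02482, LINC01481, LINC00884, LINC00893 and LINC00649 overlapped those of their partners. LINC01006 at 75.9 was 7.10 times above RNF32, a RING finger gene at 10.7, whose nearest annotated start lay 15 bases away. LINC01560 at 55.9 was 3.61 times above ZNF41, a zinc finger gene at 15.5. LINC00205 at 77.7 was above POFUT2, which adds fucose to secreted proteins, at 52.3. LINC01547 with SLX9 (20.5 and 12.8) and LINC00893 with EOLA1 (8.09 and 4.20) were the other pairs in which the LINC RNA was higher.

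In the other 7 pairs the difference ranged from small to large. LINC01184 at 101 was near SLC12A2, the sodium-potassium-chloride cotransporter gene, at 127. LINC00909 at 33.3 was near ZNF407 at 45.7, and LINC02482 at 20.8 was near ENSG00000170846 at 22.3. LINC01089 at 17.7 was under the histone methyltransferase gene SETD1B at 83.0. LINC00649 at 7.45 was under ATP5PO, a subunit of mitochondrial ATP synthase, at 194. LINC01481 at 15.7 had its nearest annotated start 5 bases from that of CNOT2, a subunit of the CCR4-NOT deadenylase complex at 391. The widest gap was that of LINC00884 at 13.5 and ATP13A3, a transporter gene at 1255, a 92.9-fold difference. Whether the partners move together between cultures was not tested, since only pooled means were used.

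**Figure D3:**
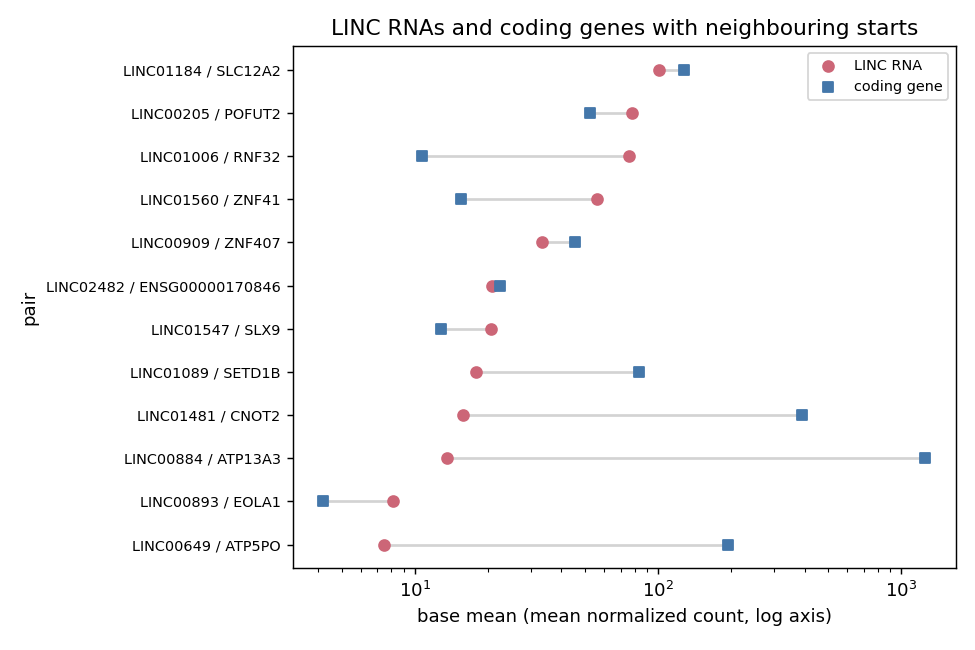
Base mean (horizontal log axis, mean normalized count) of the LINC RNA (circles) and the coding gene (squares) in the 12 pairs with starts within 1 kb on opposite strands. The circle lies to the right in 5 pairs, farthest for LINC01006 (75.9 against 10.7), and to the left in 7, farthest for LINC00884 (13.5 against 1255).

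Promoter windows were compared next, since the rule used levels and not sequence. RefSeq windows of 300 bases, from 250 before to 50 after the start in GRCh38.p14, were matched for 84 members and 159 lower LINC rows. LINC00511 is shown as a GC-rich case (chr17:72640423-72640722, minus strand, 78% GC) and LINC00997 as a window of low GC content (chr7:32758036-32758335, plus strand, 39% GC). LINC01006 (chr7:156640486-156640785, minus strand) and LINC01481 (chr12:70243311-70243610, minus strand) are shown as divergent starts with the LINC RNA above and below its partner. Capitals mark GGGCGG, the core of the GC box that binds SP1-type factors, or its reverse complement CCGCCC, and the windows are written on the strand of the LINC RNA.
LINC00511: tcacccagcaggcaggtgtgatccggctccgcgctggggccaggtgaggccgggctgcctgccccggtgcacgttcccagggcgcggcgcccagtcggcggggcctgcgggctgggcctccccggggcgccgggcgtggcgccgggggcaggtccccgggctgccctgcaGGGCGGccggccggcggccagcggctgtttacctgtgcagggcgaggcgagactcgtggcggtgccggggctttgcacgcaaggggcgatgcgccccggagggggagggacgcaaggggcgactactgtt
LINC00997: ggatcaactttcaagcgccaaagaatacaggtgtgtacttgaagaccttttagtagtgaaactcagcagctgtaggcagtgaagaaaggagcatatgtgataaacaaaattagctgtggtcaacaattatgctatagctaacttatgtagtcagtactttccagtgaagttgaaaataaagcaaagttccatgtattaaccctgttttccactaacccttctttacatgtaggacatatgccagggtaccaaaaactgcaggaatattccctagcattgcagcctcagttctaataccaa
LINC01006: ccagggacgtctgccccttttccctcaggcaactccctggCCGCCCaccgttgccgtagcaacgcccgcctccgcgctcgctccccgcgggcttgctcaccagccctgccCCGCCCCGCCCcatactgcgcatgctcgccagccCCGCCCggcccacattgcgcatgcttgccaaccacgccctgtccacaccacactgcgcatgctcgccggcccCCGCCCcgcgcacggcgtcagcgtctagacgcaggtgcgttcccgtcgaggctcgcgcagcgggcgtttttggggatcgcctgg
LINC01481: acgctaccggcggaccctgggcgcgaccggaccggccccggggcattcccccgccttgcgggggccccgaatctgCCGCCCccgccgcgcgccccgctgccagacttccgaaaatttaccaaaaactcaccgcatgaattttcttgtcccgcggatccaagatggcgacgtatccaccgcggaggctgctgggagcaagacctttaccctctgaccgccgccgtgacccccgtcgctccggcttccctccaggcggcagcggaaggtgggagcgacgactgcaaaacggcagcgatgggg
LINC01006 held 5 matches, all of them CCGCCC, LINC00511 and LINC01481 held 1 each, and LINC00997 held none. The RefSeq window of LINC00997 ends before the GENCODE 44 start of that gene at 32760279.

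The GC content of these windows had a median of 59.3% in members, 53.3% in the lower LINC rows and 58.3% in all 27305 windows. Windows of at least 70% GC made up 26.2% of the members' windows, 10.1% of those of the lower rows and 19.5% of all. The observed over expected CpG ratio, a measure of CpG islands, had a median of 0.566 in members, 0.353 in lower rows and 0.580 in all windows. On both medians the members lay nearer to all RefSeq windows than to the lower LINC rows, which had less GC and less CpG. These are counts over genes, and no test was made. GGGCGG, on either strand, was present in 51.2% of members, 30.8% of lower rows and 44.6% of all windows. CCAAT was found in 44.05%, 38.4% and 35.7%, and TATAAA in 13.1%, 11.3% and 11.95%, both also searched on either strand. A match is a description of the letters and not a binding site. Within the members, Spearman's rho of the level was 0.09 with GC content and 0.11 with the CpG ratio, over 84 genes.

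**Figure D4:**
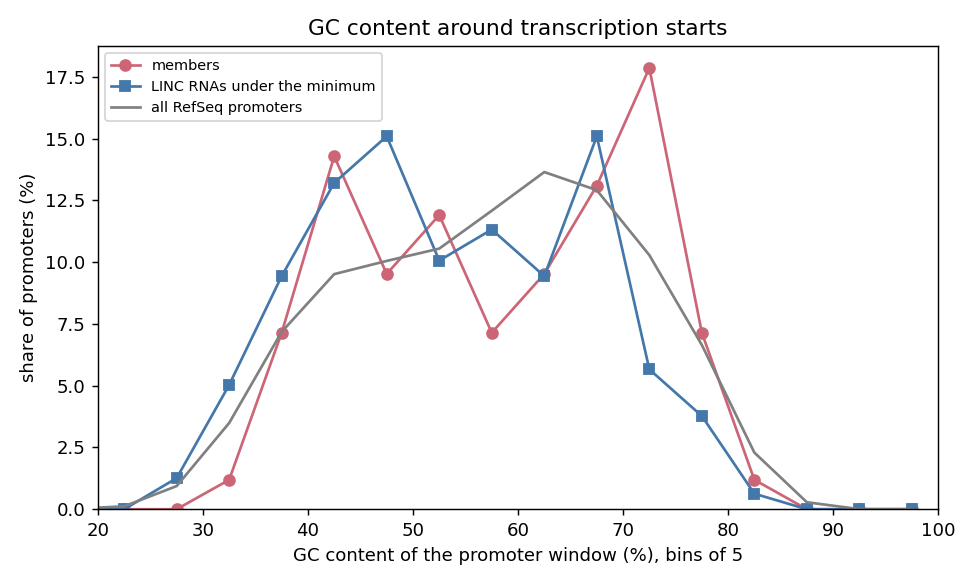
Share of promoter windows (vertical axis, percent) by GC content in bins of 5 percentage points (horizontal axis) for 84 members, 159 lower LINC rows and all 27305 RefSeq windows. The members' curve is highest between 70 and 75% GC, while 10.1% of the lower rows lie at or above 70%.

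The annotated ends of the canonical transcripts were examined for all members, because the protocol reads tags near the end of an RNA. AATAAA or ATTAAA lay in the last 50 bases of 54 members (49.5%) and of 138 lower rows (56.8%). Every word of 60 bases in the last 500 was unique in the genome for 81 members (74.3%) and for 188 lower rows (77.4%). At least 50% of those words were repeated in 3 members, namely LINC01278 with 100%, LINC00869 with 52.8% and LINC00622 with 51.7%. The level of LINC01278, given above as 191, is uncertain. Reads of such an end match more than 1 place, but only the canonical one of its 40 annotated transcripts was checked. Where its counted reads fell was not examined. Another gene on the same strand covered 100% of the end of LINC00680 (17.5) and 5% of that of LINC00339. The effect of this overlap on the value of LINC00680 was not tested.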

How the data were processed

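RNA of 3 vehicle and 3 levamisole cultures of AB 8/13 podocytes was sequenced from its 3′ ends with an adapted CEL-seq protocol. According to the methods and the submitters' processing notes, reads were trimmed with Trim Galore 0.4.5 and cutadapt 1.18, checked with FastQC 0.11.8, aligned to GRCh38 (Ensembl 95) with STAR 2.7.5a, counted with HTSeq 0.11.0 and fitted with DESeq2 1.22.0 in R 3.5.3. The methods also name BWA MEM and an RPM scaling. The authors deposited a table with 1 signal value per gene, the base mean (mean normalized count), used here as the authors' pooled mean. How many libraries it covers was not stated. The other columns hold the authors' own comparison (fold change, its error and p-values) and were not used, so no vehicle and levamisole difference was tested and the depth per library is unknown. HTSeq counts by strand in its default setting, and reads that match several places are not counted.

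Members were rows named LINC and digits with a base mean of at least 5. The 2 names on more than 1 row, LINC01481 and LINC01238, were kept as separate rows, and the member row of LINC01481 is ENSG00000257815. The members and lists were chosen with earlier results of these data known. Genes named are the 20 highest, the 3 rows on either side of the minimum, members among the 40 highest with a divergent start, and listed known LINC RNAs; other divergent pairs, coding neighbours, the printed promoters, the GC bound of 70%, the repeat checks and the HOX neighbourhood were chosen after values were seen. Positions of 352 of 356 LINC rows were taken by gene identifier from GENCODE 44 (GRCh38), a later annotation than the authors'. The repeat counter was tested on simulated sequence. Python 3.11.15, pandas 2.3.3, NumPy 2.4.6, SciPy 1.17.1, pysam 0.24.0, numba 0.67.0 and matplotlib 3.10.9 were used. Other minimums, name patterns, length scalings, distances and end lengths were tried as alternatives. Some marker genes and transcript ends are not reported here.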

Additional observations from a re-analysis of the deposited data

How the results depend on the processing

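No paired analysis was possible because only a pooled mean per gene was used and no result came from a test. With a minimum of 50, 27 rows were members, and without one all 356 were. With a minimum of 10, 22.2% of LINC rows were members. Divided by the summed length of all annotated exons, 12 of the 20 highest members stayed among the 20 highest, and divided by the length of the canonical transcript 13 did, a scaling chosen after seeing the data. Since 3′ tags fall near the end of a transcript whatever its length, levels were not divided by length in the report. The members' share of the summed base mean was 0.147% without mitochondrial genes. With the last 1000 bases, 5 members had an end covered by another gene. The minimum of 10 left 79 of the 109 members. The other alternatives, among them divergent starts taken from canonical transcripts only (10.1% of members, chosen after seeing the data), moved counts and the share of the summed base mean by less than 1.5 times, and the other percentages within the 95% Wilson interval of the reported value. The missing values per culture limit every level: no spread, and no difference between neighbouring levels, could be estimated.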
